A study of Pinctada fucata with 15 samples.

Results

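Gene expression was compared between juveniles and umbonal stage larvae of *Pinctada fucata*, the pearl oyster, from 3 pools of whole larvae collected at 14 days and 3 pools of whole juveniles collected at 35 days. The pools were chosen by their stage labels, and they are 6 of the 15 one-colour arrays of a developmental series that also holds fertilized eggs, trochophore stage larvae and D-shaped stage larvae. All pools came from normal culture without any treatment and were fed algae. The larvae were kept in tanks, whereas the juveniles adhered to boards in pools, and the labels call the 3 pools of a stage biological replicates. Each probe value is the Cy3 signal of 1 spot sequence on the log2 scale, after the distributions of the 15 arrays had been made equal by quantile normalization. The probes were designed from unigenes, that is assembled transcripts, of the adult mantle, except for 300 probes that were designed from GenBank sequences. A transcript that larvae make and the adult mantle does not would therefore have no unigene probe.

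At metamorphosis a bivalve larva gives up the velum, the ciliated lobe with which it swims and collects food, and takes up a settled life. In the pearl oyster the larval shell is then followed by the dissoconch, the juvenile and adult shell, which has an inner nacreous layer of aragonite and an outer prismatic layer of calcite. The mantle epithelium secretes the organic matrix of these layers, which consists of proteins and chitin. In a pool of whole animals, fewer cells of a type and less RNA per cell cannot be told apart, nor can the stage be told apart from the difference in age, food or surface.

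The 6 arrays lay on 1 slide, with the umbonal arrays in the upper row and the juvenile arrays in the lower row, so the row and the stage cannot be told apart. Between 80.9% and 91.3% of the probe spots of an umbonal array and between 89.3% and 91.2% of those of a juvenile array were well above background, with the lowest share on umbonal replicate 3, and no probe spot was saturated. Pearson's r across probes, which are not independent replicates, was 0.987 to 0.994 between umbonal arrays, 0.992 to 0.995 between juvenile arrays, and 0.897 to 0.906 between arrays of the different stages. For the juvenile label, the study's table of 30 biomineralization genes had a mean log2 signal of 6.75 to 6.86 on the umbonal arrays and 12.1 to 12.3 on the juvenile arrays, and 6 of its genes did not exceed the background clearly on any umbonal array. The study reported these genes with their changes on the same samples, so they are no independent check of the label. For the larval label, the 24 probes of a list of cilium and axoneme genes had a mean log2 signal of 8.78 to 8.83 on the umbonal arrays and 7.66 to 7.87 on the juvenile arrays. Their median was 8.15 in fertilized eggs, 8.33 at the umbonal stage and 7.33 in juveniles. The list therefore sets umbonal larvae apart from juveniles but not from eggs. The levels of the stages lay apart for both sets. All 24 cilium probes were well above background on all umbonal arrays and 21 of them on all juvenile arrays, so these transcripts were lower in juveniles but not absent.

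Of 58883 probes, 52420 were tested, namely those whose spots exceeded the background clearly in every pool of either stage. With limma, 15403 probes (29.4%) passed the threshold, which was 0.05 for the p adjusted by Benjamini-Hochberg together with a 2-fold difference. Of these, 7055 (13.5% of the probes tested) were higher and 8348 (15.9%) were lower in juveniles. The median log2 change over all tested probes was -0.11. The balance of rises and falls depended on the scaling. After a shift of each array by its 75th percentile, which moved that median to 0.01, 8513 probes (16.2%) were higher and 5936 (11.3%) were lower.

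The rises reached further than the falls. Between 2-fold and 4-fold, 6238 falls stood against 3750 rises, and between 4-fold and 8-fold the numbers were 1546 and 1471. From there on rises were more frequent, with 832 against 437 between 8-fold and 20-fold, 651 against 114 between 20-fold and 100-fold, and 351 against 13 beyond 100-fold. In all, 1002 probes (1.91%) were at least 20-fold higher and 127 (0.242%) were at least 20-fold lower in juveniles. A probe at or below background in 1 stage has only a lower bound for its fold, and with such probes at that bound, 921 rises and 119 falls remained at 20-fold or more. Of the 1002 rises, 416 were well above background on all 3 umbonal arrays and 284 on none, and of the 127 falls, 89 were well above background on all 3 juvenile arrays and 19 on none. Under the 75th-percentile shift the counts were 1163 and 83.

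**Figure D1:**
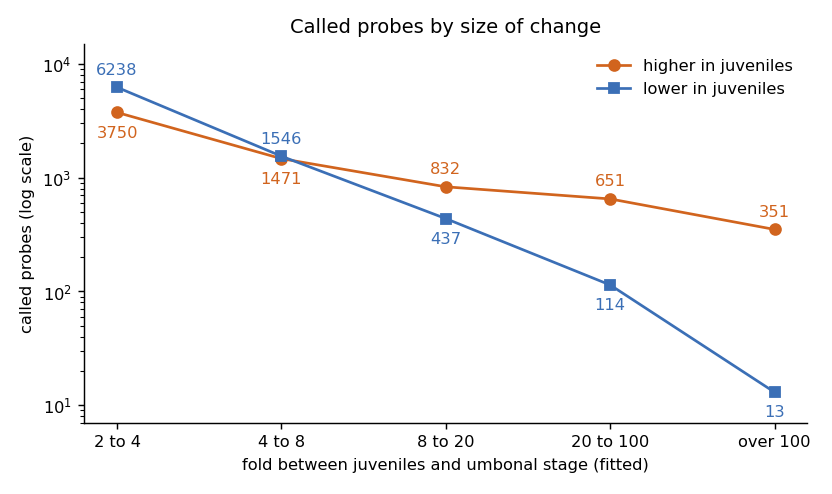
Number of probes called higher (orange circles) and lower (blue squares) in juveniles than at the umbonal stage, on a logarithmic axis, by the fitted size of the change. Falls outnumber rises between 2-fold and 4-fold (6238 against 3750), and rises outnumber falls beyond 8-fold, with 351 against 13 beyond 100-fold.

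The earlier stages give the levels of the probes before the umbonal stage. Except for D-shaped replicate 3, their arrays lay on another slide than the 6 arrays compared. On that slide, between 53.3% and 74.6% of the probe spots of an array were well above background. Differences from the earlier stages can therefore largely not be told apart from differences between the slides. Of the 7055 probes called higher, 5404 (76.6%) had their highest stage mean in juveniles and 989 had it in fertilized eggs. A highest mean in eggs need not be a high level. Of 1284 probes well above background on all juvenile and no umbonal arrays, 227 had their highest mean in eggs. The median log2 signal of those 1284 in eggs was 4.31. The umbonal mean was the lowest of the 5 stages for 2576 (36.5%) of the probes called higher. Of the 8348 probes called lower, 3218 (38.5%) had their highest mean at the umbonal stage, 2346 in fertilized eggs, 1513 at the trochophore stage and 1271 at the D-shaped stage. In juveniles, 4445 of them (53.2%) reached the lowest mean of the 5 stages. The position of a probe's highest and lowest mean uses the same umbonal and juvenile values as the call, so these are descriptions.

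For the largest changes, the profiles were more uniform. The median log2 signal of the 1002 probes at least 20-fold higher was 4.91 in fertilized eggs, 4.74 at the trochophore stage, 4.95 at the D-shaped stage, 4.51 at the umbonal stage and 11.02 in juveniles, and 988 of them had their highest mean in juveniles. The median of the 127 probes at least 20-fold lower was 5.33 in fertilized eggs, 6.73, 8.84 and 10.40 at the following 3 larval stages, and 5.10 in juveniles. Of these, 77 had their highest mean at the umbonal stage, 33 at the D-shaped stage, 10 in fertilized eggs and 7 at the trochophore stage. The median of the probes that fell most was thus higher at each stage up to the umbonal stage. That of the probes that rose most was low at every earlier stage. The difference between the umbonal and juvenile levels follows from the choice of the probes. A median also does not give the course of single probes.

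**Figure D2:**
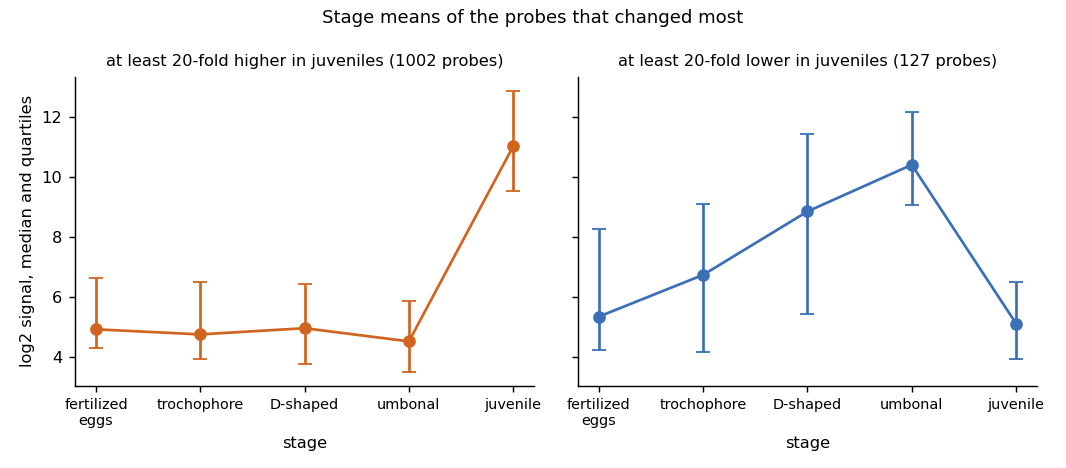
Median log2 signal (points) and quartiles (bars) of the stage means at 5 stages, for probes at least 20-fold higher in juveniles (left) and at least 20-fold lower (right) than at the umbonal stage. The medians on the left lie between 4.51 and 4.95 until the umbonal stage and at 11.02 in juveniles. Those on the right go from 5.33 in fertilized eggs to 10.40 at the umbonal stage and lie at 5.10 in juveniles.

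Some probes passed the background threshold in 1 of the compared stages only. Such a probe is said to be found only in that stage, which leaves out the earlier stages and does not show absence. On all 3 juvenile arrays and on no umbonal array, 1284 probes were well above background, of which 1013 were called higher and 203 had a lower bound of at least 20-fold. For 85 of these 1284 probes the lower bound was below 1-fold. Of the 1284, 937 had been well above background on no array of an earlier stage either. The reverse, well above background on all 3 umbonal arrays and on no juvenile array, was found for 278 probes, of which 261 were called lower and 11 had a lower bound of at least 20-fold, and 58 of them were well above background on no array before the umbonal stage. The counts of 937 and 58 rest mostly on arrays of the other slide, where a smaller share of spots was well above background. The numbers depended on single arrays. Without umbonal replicate 1, 2393 probes were found only in juveniles, and without umbonal replicate 3 or juvenile replicate 2, 728 or 445 probes were found only at the umbonal stage. The lowest log2 signal that counted as well above background lay between 3.64 and 4.62 on the umbonal arrays and between 3.66 and 3.85 on the juvenile arrays.

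A supplementary list of the probes with large rises at this transition comes with the study, and the copy used here may not be complete. That copy holds 281 annotated and 831 uncharacterized unigenes. Of its 1112 probes, 1111 were tested, all of these were called higher, and 881 were at least 20-fold higher. Because the list was drawn by the study from the same arrays and the same comparison, the groups described next, which were formed from its annotations, show what the large rises consist of and are no independent evidence of a direction. Names are the best database matches that the study lists. Many are in distant species, such as *Theileria annulata* for a calmodulin (CUST_16426), and most species are not printed here. A name does not establish what the oyster gene does, and several probes with the same match can be pieces of 1 gene. Of the 1002 probes at least 20-fold higher, 241 had such a match, 640 were listed as uncharacterized and 121 were not on the list.

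Proteins of the shell matrix formed the largest of these groups, with 29 probes. The 19 with at least 1 umbonal array well above background had log2 changes of 4.81 to 11.57, the 10 others were at least 7.95-fold to 1287-fold higher, and all 29 had their highest mean in juveniles. The median log2 change was 7.79, or 7.5 with the 10 at their lower bound. Prismalin-14 precursor (CUST_52129), a protein of the prismatic layer, was at log2 signals of 2.84, 3.38 and 3.44 on the umbonal arrays, none of them well above background, and at 14.50, 14.46 and 14.37 on the juvenile arrays. Such a probe is called dark at the umbonal stage. This is a rise of at least 1287-fold, the highest lower bound of all probes that were found only in juveniles (limma, adjusted p = 2.1e-11). The groups lay far apart and no array was between them.

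Other matrix proteins behaved alike. The probe annotated as KRMP-7 of *Pinctada margaritifera* (CUST_47674), of the lysine-rich matrix proteins of the prismatic layer, was at 5.10, 5.01 and 4.55 in umbonal larvae and at 15.32, 15.14 and 15.29 in juveniles, a log2 change of 10.36 (standard error 0.29, adjusted p = 3e-11). Prisilkin-39, a chitin-binding protein of the prismatic layer, had a probe (CUST_42173) at 5.31, 4.99 and 4.60 in umbonal larvae and at 15.54, 15.59 and 15.62 in juveniles, a log2 change of 10.62 (standard error 1.15, adjusted p = 6.1e-06). Another prisilkin-39 probe (CUST_36021) already stood at 8.61, 8.83 and 8.25 in umbonal larvae and reached 16, 16.05 and 15.85, which gave a smaller change of 7.41 (standard error 0.36). These probes for prisilkin-39 thus differed in the size of the change but not in its direction. All standard errors rest on the spread within all 5 stages and not on the compared stages alone. For CUST_42173 the SD was 3.51 in fertilized eggs, 0.35 at the umbonal stage and 0.04 in juveniles.

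Not every gene of shell formation was near background before, and not every one was called higher. Of the 29 tested genes of the study's biomineralization table, which the study chose on these samples, 23 were higher, none was lower and 6 were not called. The probe for nacrein (CUST_57434), a carbonic anhydrase of both shell layers, was at 6.11, 6.50 and 6.13 in umbonal larvae and at 9.51, 9.45 and 9.36 in juveniles, a log2 change of 3.20 (standard error 0.33, adjusted p = 3.7e-06). PFMG6 (CUST_50058) went from 9.58, 9.45 and 9.52 to 11.82, 12.42 and 11.76, a log2 change of 2.48 (standard error 0.34, adjusted p = 5.4e-05), and PFMG8 (CUST_45587) from 11.62, 11.66 and 11.66 to 13.29, 13.33 and 13.25, a log2 change of 1.64 (standard error 0.29, adjusted p = 0.0004). For these 3 genes the stages did not overlap either, as was so for 15359 of all 15403 called probes. Linkine (CUST_53921) was not well above background in umbonal larvae and was at 7.57, 6.96 and 6.78 in juveniles, a rise of at least 7.95-fold. The genes not called were all well above background in every umbonal pool. Apart from a chitin synthase they were PFMG1/7, PFMG2 and PFMG12, with log2 changes of 0.73, 0.65 and 0.95, N151 with -0.40, and a ferritin-like protein with -0.93. PFMG1/7, PFMG2 and PFMG12 missed only the 2-fold limit (limma, adjusted p = 0.023, 0.0025 and 0.00021). The same holds for the ferritin-like protein (adjusted p = 0.01) but not for N151 (adjusted p = 0.14). The ferritin-like protein (CUST_56226), of a family that stores iron, was at 15.00, 14.88 and 15.10 in umbonal larvae and at 14.06, 14.11 and 14.03 in juveniles, and it was called lower with spike-in scaling.

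The 5 genes that the study selected from its list as shell candidates were all called higher, as their selection required. The weakest in juveniles was CUST_34332, at 3.08, 3.55 and 3.01 in umbonal larvae, below background, and at 6.67, 5.93 and 6.83 in juveniles, at least 5.16-fold higher. The largest log2 change was that of CUST_35096, from 4.74, 4.68 and 4.29 to 12.96, 12.61 and 12.70, a change of 8.19 (standard error 0.38). CUST_51699 was well above background on all umbonal arrays, at 7.70, 7.71 and 7.53, and changed by 4.94 (standard error 0.39), whereas CUST_18739 and CUST_56635 changed by 6.97 and 7.93.

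**Figure D3:**
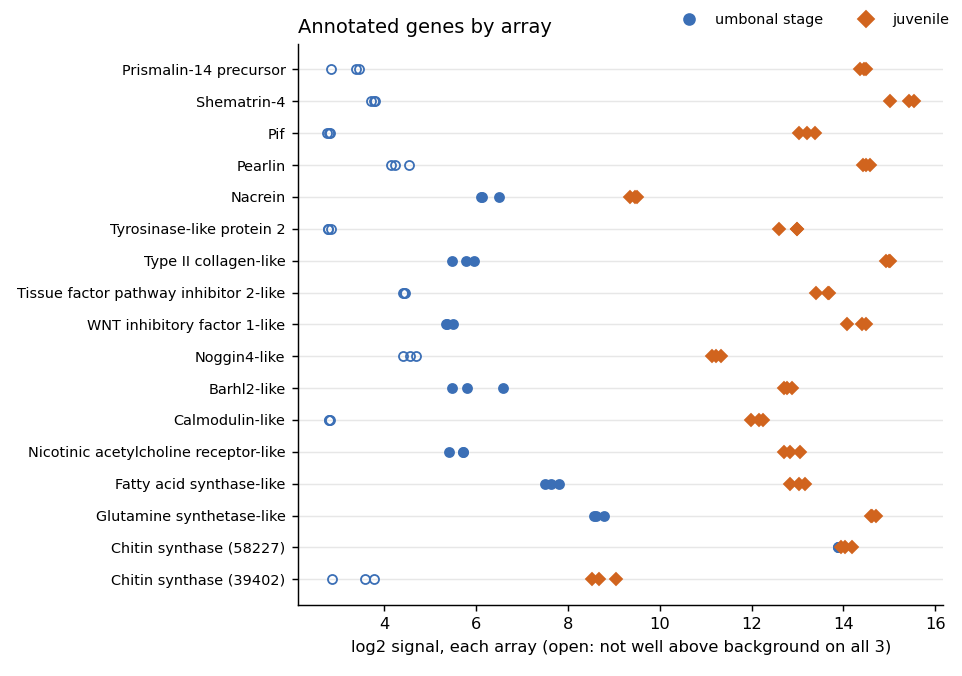
Log2 signal of annotated genes on each of the 3 umbonal arrays (blue circles) and 3 juvenile arrays (orange diamonds), with open circles where the gene was not well above background on all 3 arrays. For prismalin-14 the umbonal arrays lie between 2.84 and 3.44 and the juvenile arrays between 14.37 and 14.50, whereas the chitin synthase probe CUST_58227 is high in both stages, with 13.87 to 13.89 against 13.95 to 14.19.

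Chitin forms the framework on which the shell is laid down, and chitin synthase makes it. Of 6 chitin synthase probes, 4 were not called. The brightest, CUST_58227, was at 13.89, 13.89 and 13.87 in umbonal larvae and at 14.03, 14.19 and 13.95 in juveniles, a log2 change of 0.17 (95% confidence interval -0.48 to 0.83, adjusted p = 0.67). The other 3 changed by less than 2-fold, by 0.54, 0.63 and -0.52 on the log2 scale (adjusted p = 0.11, 0.046 and 0.049). All 4 stood between 10.9 and 14.6 as early as the D-shaped stage. The remaining pair of probes had another course. CUST_39402 was at 3.78, 3.57 and 2.86 in umbonal larvae, with 1 array well above background, and at 8.67, 9.04 and 8.51 in juveniles, a log2 change of 5.33 (adjusted p = 2.2e-07), and CUST_1621, dark on every umbonal array, was at least 2.93-fold higher (adjusted p = 8.5e-06). They had means of 3.54 and 2.97 at the D-shaped stage, where the others were already high. The last pair is annotated from the study's list of large rises, so its direction follows from that choice.

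Enzymes and proteins that act on chitin rose too. Chitinase 1 precursor (CUST_42734), which cleaves chitin, changed from 4.48, 4.67 and 4.14 to 12.28, 12.03 and 12.23, a log2 change of 7.75 (standard error 0.26, adjusted p = 1.1e-10). Of the probes matched to Clp1 and Clp3 of *Crassostrea gigas*, chitinase-like proteins, CUST_56502 (Clp1) and CUST_57568 (Clp3) were dark on the umbonal arrays. CUST_56502 was at 10.31, 10.35 and 9.77 in juveniles, at least 65.5-fold higher, and CUST_57568 at 9.53, 10.09 and 10.23, at least 57.2-fold higher. Another Clp1 probe (CUST_57744) was above background in every umbonal pool, at 5.21, 5.06 and 5.25, and was at 11.42, 11.72 and 11.48 in juveniles, a log2 change of 6.37 (standard error 0.56).

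Tyrosinases oxidize tyrosine and are known in bivalves for hardening and colouring the periostracum, the outer skin of the shell, and the prismatic layer. The 17 tyrosinase probes of the list included none that was well above background on all 3 umbonal arrays. The 7 with at least 1 such array had log2 changes of 3.85 to 10.03, and the 10 dark ones were at least 9.68-fold to 429-fold higher. Tyrosinase-like protein 2 (CUST_58084) was at 2.78, 2.77 and 2.84 in umbonal larvae and at 12.98, 12.98 and 12.60 in juveniles, at least 429-fold higher. Among 12 probes for peroxidases and copper amine oxidases, other oxidizing enzymes, the 8 with an umbonal array above background changed by 3.81 to 8.13, and the 4 dark ones were at least 2.76-fold to 42.8-fold higher. Ovoperoxidase (CUST_47036) was at 4.24, 3.95 and 4.58 in umbonal larvae and at 12.39, 12.53 and 12.22 in juveniles, and its mean had been 12.24 at the D-shaped stage. An oxidase/peroxidase (CUST_56279) was likewise at 10.62 at the D-shaped stage, fell to 3.96, 2.94 and 3.61 in umbonal larvae and stood at 9.69, 9.95 and 9.27 in juveniles. Both were therefore high before and after the umbonal stage.

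Among the 26 genes of the study's tyrosine table, 19 were higher and 7 lower, against 13.5% and 15.9% over all probes. The study chose these genes on these samples because they changed at each transition from the trochophore stage to juveniles. That all were called therefore follows from the choice. Of the table's 10 glutathione S-transferases, 8 were higher, by 1.13 to 4.86 on the log2 scale, and 2 were lower. These enzymes attach glutathione to reactive compounds. A glutathione S-transferase (CUST_39791) changed from 7.32, 7.16 and 7.66 to 12.30, 12.20 and 12.22, a log2 change of 4.86 (standard error 0.26, adjusted p = 8.6e-09). A pi class enzyme (CUST_53080) went from 8.16, 7.31 and 8.80 to 6.12, 6.22 and 6.29, a log2 change of -1.88 (standard error 0.32, adjusted p = 0.0003). The other fall was that of a microsomal enzyme, CUST_53245, with -1.78, whereas another microsomal enzyme, CUST_56433, rose by 4.53. The other falls of that table were those of gastric triacylglycerol lipase (-1.32), caffeoyl-CoA O-methyltransferase (-1.07), a temptin probe (CUST_22403, -1.39), a protein with a ShTK domain (-1.53) and xanthine dehydrogenase/oxidase (-1.36).

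Collagens, the fibrous proteins of connective tissue, together with 1 enzyme that hydroxylates collagen made up 22 probes. The 11 with an umbonal array above background changed by 4.92 to 9.24, and the 11 dark ones were at least 6.21-fold to 58.4-fold higher. A probe matched to type II collagen alpha 1b (CUST_57892) went from 5.78, 5.47 and 5.94 to 14.99, 15.01 and 14.92, a log2 change of 9.24 (standard error 0.68, adjusted p = 1.6e-07). A collagen pro alpha-chain (CUST_52550) went from 6.41, 6.04 and 5.75 to 14.92, 14.86 and 14.72, a change of 8.77 (standard error 0.19, adjusted p = 4.9e-12). In both, the juvenile arrays lay within 0.2 of each other on the log2 scale and far above the umbonal arrays. The group of sugar and sulfate transferases had 14 probes, of glycosyltransferases, which build glycan chains, and of cytosolic sulfotransferases, which act on small molecules. The 7 with an umbonal array above background changed by 4.37 to 6.87, and the 7 dark ones were at least 4.32-fold to 209-fold higher, with a beta 1,4-galactosyltransferase (CUST_27373) at the upper end.

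Protease inhibitors of the Kunitz, Kazal, antistasin and TIMP (tissue inhibitor of metalloproteinase) types gave 12 probes, of which 10 with an umbonal array above background changed by 5.56 to 9.15 and 2 dark ones were at least 12-fold and 25.1-fold higher. The strongest was matched to tissue factor pathway inhibitor 2 (CUST_54741), at 4.42, 4.41 and 4.46 in umbonal larvae and at 13.68, 13.66 and 13.40 in juveniles (log2 change 9.15, standard error 0.41, adjusted p = 1.7e-09). A papilin-like probe (CUST_32937), whose matches in other animals are extracellular matrix proteins, was well above background on all umbonal arrays, at 5.83, 5.99 and 6.03, and reached 14.14, 13.85 and 13.77 (log2 change 7.97, standard error 0.20). Lectins and fibrinogen-like proteins, which bind sugars on microbes and cells, gave 7 probes, of which 5 with an umbonal array above background changed by 4.64 to 8.42, led by a C-type lectin match (CUST_17887) that went from 4.87, 4.84 and 4.88 to 13.24, 13.25 and 13.36.

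Calmodulins bind calcium and pass its signal on to other proteins. Of the 5 calmodulin probes of the list, 3 were measured in umbonal larvae and changed by 5.56 to 6.61, and 2 were dark there. One of the dark ones (CUST_16426) was at 2.79, 2.80 and 2.81 in umbonal larvae, below background, and at 12.25, 12 and 12.17 in juveniles, at least 261-fold higher. A list of 26 tested calcium signaling probes was drawn from the study's terms for the earlier transitions. It held 2 rises (7.69%) and 7 falls (26.9%) with a median of -0.70, against 13.5% rises and 15.9% falls over all probes. Its pair of rises consisted of calmodulins, CUST_16543 (at least 104-fold) and CUST_11951 (log2 change 6.61).

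Regulators of development were among the large rises as well. A match to WNT inhibitory factor 1 (CUST_37304), which binds Wnt ligands outside the cell, was at 5.36, 5.50 and 5.34 in umbonal larvae and at 14.40, 14.49 and 14.07 in juveniles, a log2 change of 8.92 (standard error 0.55, adjusted p = 3.3e-08). A match to noggin4 (CUST_52185), of a family known in vertebrates for blocking BMP ligands, changed by 6.67 (standard error 0.31) and a follistatin-like probe (CUST_48769), of a family known for binding activin, by 5.85 (standard error 0.21). Transcription factor matches were Ets at 98B (CUST_44305), Barhl2 (CUST_44397), BarH-like homeobox 1 (CUST_42093) and Ets at 21C, with changes of 6.96, 6.82, 5.71 and 5.64. Barhl2 was at 5.79, 6.59 and 5.48 in umbonal larvae and at 12.87, 12.70 and 12.77 in juveniles, so its umbonal arrays varied more than its juvenile arrays.

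Of the 3 Smads with probes of known name, the transducers of TGF-beta and BMP signals, Pf-smad3 was higher in juveniles, at 4.80, 4.57 and 4.35 against 6.30, 6.59 and 5.76 (log2 change 1.64, standard error 0.37, adjusted p = 0.0026). Pf-smad4 was at 5.10, 4.50 and 5.38 against 4.39, 4.99 and 5.32, with overlapping stages (log2 change -0.09, adjusted p = 0.82). Pf-smad5 was lower, at 6.81, 6.39 and 6.96 against 5.48, 5.32 and 4.95 (log2 change -1.47, adjusted p = 0.00016), a call that did not hold after the 75th-percentile shift. Neurotransmitter receptors were represented by 4 probes of the list. A match to a nicotinic acetylcholine receptor (CUST_48767), an ion channel opened by acetylcholine, went from 5.72, 5.72 and 5.42 to 13.06, 12.85 and 12.71 (log2 change 7.25, standard error 0.31), another (CUST_19279) was at least 80.4-fold higher, and metabotropic glutamate receptor 1 (CUST_22150) changed by 5.58.

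The 5 largest rises among probes measured above background on every one of the 6 arrays had log2 changes of 9.81 to 10.56. They were led by a hypothetical protein (CUST_30466), at 4.51, 4.33 and 4.75 in umbonal larvae and at 15.07, 15.17 and 15.03 in juveniles, whose mean had been 10.94 at the trochophore stage. A match to caveolin-3 (CUST_26933), known in vertebrate muscle as a coat protein of membrane pits, went from 5.05, 5.2 and 5.18 to 15.18, 15.12 and 15.32 (log2 change 10.07, standard error 0.84, adjusted p = 5.4e-07). The SD of CUST_26933 was 2.55 in fertilized eggs, 0.08 at the umbonal stage and 0.10 in juveniles. The other 3 of these rises belonged to the probes designed from GenBank sequences, for which no name could be given.

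The 300 GenBank probes were not picked by any array value, and the files used here do not pair them with gene names, apart from the Smads. Of the 284 tested, 91 (32%) were higher, 27 (9.51%) lower and 166 not called, against 13.4% higher and 16% lower of the 52136 unigene probes tested. At least 20-fold higher were 52 of the GenBank probes (18.3%) against 1.82% of the unigene probes, 33 were at least 100-fold higher, and none was at least 20-fold lower. The rises had a median log2 change of 4.96, against 1.91 over all called rises, and 82 of the 91 had their highest mean in juveniles. The strongest was CUST_135_PI429683413, at 4.69, 4.88 and 4.42 in umbonal larvae and at 16.27, 16.32 and 16.17 in juveniles (log2 change 11.59, standard error 0.89, adjusted p = 2.7e-07), and the 6 strongest rises lay between 10.80 and 11.59. The 27 falls were moderate, with a median of -1.60 and the 6 strongest between -3.88 and -2.22, and 17 of them had their highest mean at the umbonal stage.

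The falls were described with lists of probes that the study's term tables name for the earlier transitions, between fertilized eggs and trochophore stage or between trochophore and D-shaped stage, since those come from arrays other than the umbonal and juvenile ones. The term tables name terms and not genes. A list covers only part of its term, namely probes that the study named as changed at an earlier transition. The shares over all probes, by contrast, cover every tested probe, changed earlier or not. Of 28 such lists, cilium and axoneme had the largest share of falls. Of its 24 tested probes, 16 (66.7%) were lower and 1 was higher in juveniles, with a median log2 change of -1.36, against 15.9% lower and a median of -0.11 over all probes. After the 75th-percentile shift 12 were lower and 1 was higher, with a median of -1.06.

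Axonemal dyneins are the motors that bend cilia, and 3 probes of the list carry that term. CUST_43163 was at 7.0, 7.4 and 6.99 in umbonal larvae and at 4.0, 4.45 and 3.87 in juveniles, a log2 change of -3.02 (standard error 0.23, adjusted p = 2.5e-07). CUST_10018 was at 8.34, 8.44 and 8.76 against 6.31, 6.54 and 6.47 (log2 change -2.08, standard error 0.25, adjusted p = 1.7e-05), and CUST_39921 at 10.04, 10.31 and 10.17 against 8.24, 8.49 and 8.29 (log2 change -1.83, standard error 0.31, adjusted p = 0.00033). All 3 were lower on every juvenile array than on every umbonal array, but the stages did not overlap for 15359 of the 15403 called probes. The probe of the list that rose, CUST_9124, carries the terms primary cilium and basal body and not axoneme, and was at 8.55, 7.97 and 8.36 against 10.78, 10.57 and 10.60 (log2 change 2.36, standard error 0.19). Outside the list, the dynein probes CUST_27382, CUST_5863 and CUST_23995, which were picked because they fell and add nothing to the list's count, changed by -3.57, -3.47 and -3.33.

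**Figure D4:**
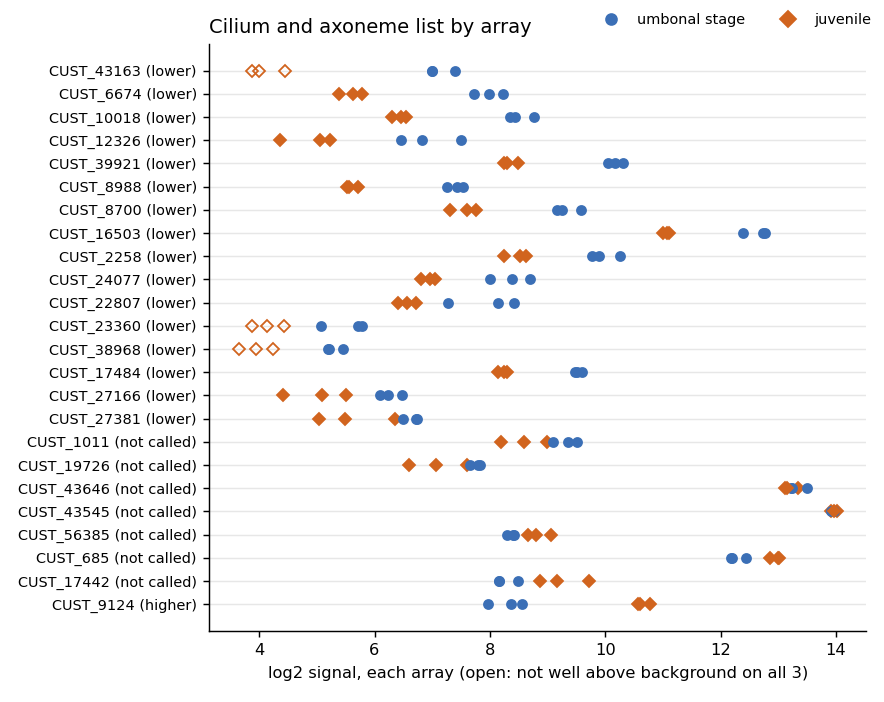
Log2 signal of the 24 tested probes of the cilium and axoneme list on each umbonal array (blue circles) and juvenile array (orange diamonds), ordered by the log2 change, with open symbols where a probe was not well above background on all 3 arrays of the stage. The 16 probes called lower lie to the left in juveniles, CUST_9124 is the single probe called higher, and most juvenile values are still well above background.

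The lysosome is the compartment in which enzymes break down proteins, lipids and sugars. Of 36 lysosome probes, 14 (38.9%) were lower and 3 (8.33%) higher, against 15.9% and 13.5% over all probes, with a median of -0.52, and after the 75th-percentile shift 11 were lower and 6 higher. The strongest was CUST_19092, which carries the terms lysosome and glycosaminoglycan degradation, at 15.11, 15.17 and 15.20 in umbonal larvae and at 7.33, 9.09 and 8.12 in juveniles, a log2 change of -6.98 (standard error 0.38, adjusted p = 1e-08). The earlier stage means were 3.73 in eggs, 11.3 in trochophores and 15.8 in D-shaped larvae, so the probe was high from the D-shaped to the umbonal stage. CUST_13791, with the same terms, went from 9.15, 8.48 and 10.27 to 3.08, 4.26 and 3.43, a log2 change of -5.71 (standard error 0.43, adjusted p = 2e-07), with a single juvenile array above background. The 3 rises were smaller, CUST_14080 with 1.74, CUST_24538 with 1.72 and CUST_16898 with 1.20.

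Falls outnumbered rises over all probes (15.9% against 13.5%), and 5 further lists are to be read against these shares. In amino sugar and nucleotide sugar metabolism, which supplies the building blocks of chitin and glycans, 11 of 29 probes (37.9%) were lower and 2 higher, with a median of -0.22 that turned to 0.05 after the 75th-percentile shift, and the leading falls were again CUST_19092 and CUST_13791, followed by CUST_37019 (log2 change -4.15). In nitrogen metabolism 9 of 23 (39.1%) were lower and 4 (17.4%) higher. Neuroactive ligand-receptor interaction had 10 falls (33.3%) and 3 rises among 30 probes, among them CUST_10877 at 8.43, 7.95 and 8.56 against 3.97, 4.08 and 4.31 (log2 change -4.19, standard error 0.33, adjusted p = 3.3e-07). Contractile fiber had 9 falls (32.1%) and 2 rises among 28 probes, and synapse 8 falls (23.5%) and 2 rises among 34. After the 75th-percentile shift, neuroactive ligand-receptor interaction had 6 falls and 3 rises, contractile fiber 5 and 2, and synapse 6 and 4.

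Of the signalling lists, Notch signaling had 8 falls (25.8%) and 1 rise (3.23%) among 31 probes, and 5 falls and 3 rises after the 75th-percentile shift. Hedgehog signaling had 6 falls (22.2%) and 3 rises (11.1%) among 27, Wnt signaling 5 (20%) and 2 (8%) among 25, and TGF-beta signaling 3 and 2 among 26, against 15.9% falls and 13.5% rises over all probes. The rise in the Notch list was CUST_25500, an uncharacterized protein at 2.79, 2.79 and 2.76 in umbonal larvae, below background, and at 12.28, 12.22 and 11.81 in juveniles, at least 255-fold higher. Its mean had been 8.31 in eggs. The other calls in these 4 lists were between -2.33 and 3.19 on the log2 scale.

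A few metabolic lists held more rises than falls, against 13.5% rises and 15.9% falls over all probes. In fatty acid biosynthesis, 5 of 10 probes (50%) were higher and 1 (10%) lower, and 3 rises were left after the 75th-percentile shift. Fatty acid synthase, which builds long-chain fatty acids, had a probe (CUST_52372) at 7.5, 7.80 and 7.63 in umbonal larvae and at 13.17, 12.84 and 13.03 in juveniles, a log2 change of 5.37 (standard error 0.15, adjusted p = 3.5e-11), and another (CUST_1780) at 6.41, 7.09 and 6.04 against 11.97, 11.75 and 11.78 (log2 change 5.32, standard error 0.21, adjusted p = 5.9e-10). In the tyrosine metabolism list 9 of 25 probes (36%) were higher and 3 (12%) lower. Its largest rise was 4.53 for a transglutaminase, an enzyme that cross-links proteins (CUST_16515), and its largest fall -3.88 for CUST_15702. In glutathione metabolism 7 of 26 (26.9%) were higher and 2 (7.69%) lower. The lists of cytochrome P450 drug and xenobiotic metabolism and of ECM-receptor interaction were balanced, with 6 and 6 of 28 (21.4% each) and 5 and 5 of 26 (19.2% each).

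Single enzymes stood out from their lists. Glutamine synthetase (CUST_6505), which binds ammonia into glutamine, was at 8.60, 8.56 and 8.79 in umbonal larvae and at 14.72, 14.61 and 14.60 in juveniles, a log2 change of 5.99 (standard error 0.13, adjusted p = 4.2e-12), while most other called probes of nitrogen metabolism were lower. A match to cytochrome P450 2C3 (CUST_22323) changed by 4.80 (standard error 0.50), whereas CUST_16985 of the same list went from 13.00, 12.93 and 12.94 to 9.90, 10.14 and 10.19 (log2 change -2.88, standard error 0.23).

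The lists of basic cell functions had few calls, against 13.5% rises and 15.9% falls over all probes. None of 19 tested ribosome probes was called, with changes between -0.79 and 0.74 and a median of -0.05. At an adjusted p below 0.05 but under 2-fold were CUST_29321 (log2 change -0.79, adjusted p = 0.00081), CUST_43167 (-0.32, adjusted p = 0.037) and CUST_54571 (0.74, adjusted p = 0.034). At an unadjusted p below 0.05, 1 ribosome probe was higher and 3 were lower. Oxidative phosphorylation had 2 falls and no rise among 27 probes, proteasome 1 fall and no rise among 23, spliceosome 5 falls and 1 rise among 45, and DNA replication 2 falls and 4 rises among 30. Of the remaining 6 lists, cell cycle had 6 falls and 6 rises among 27 probes, citrate cycle 2 and 4 among 26, fatty acid metabolism 4 and 2 among 28, starch and sucrose metabolism 4 and 2 among 27, glycosaminoglycan and O-glycan biosynthesis 8 and 6 among 53, and extracellular matrix 3 and 1 among 14.

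**Figure D5:**
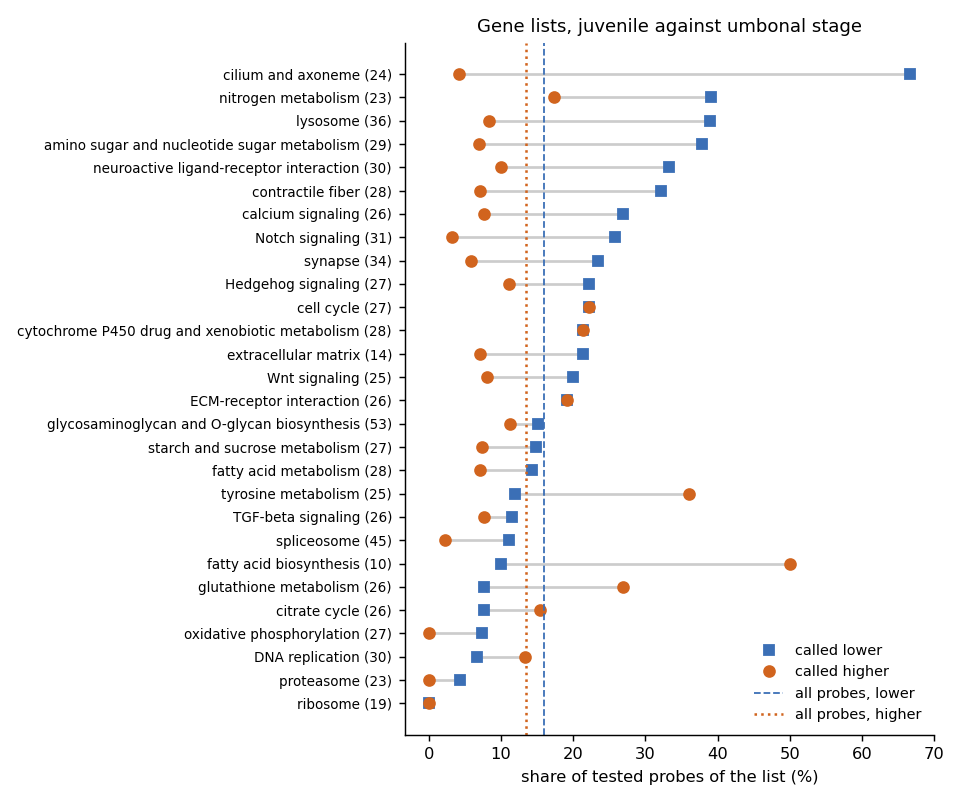
Share of the tested probes of each list called lower (blue squares) and higher (orange circles) in juveniles than at the umbonal stage, with the number of tested probes in parentheses and the shares over all probes as vertical lines (15.9% lower, 13.5% higher). Cilium and axoneme has the largest share of falls (66.7%), fatty acid biosynthesis the largest share of rises (50% of 10 probes), and ribosome has no call.

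The largest falls had no annotation in the files used here. The strongest among probes measured above background on all 6 arrays was CUST_9002, at 14.60, 14.50 and 14.55 in umbonal larvae and at 5.59, 6.79 and 6.34 in juveniles, a log2 change of -8.31 (standard error 0.25, adjusted p = 5.4e-11). Its mean had been 14.83 at the D-shaped stage and 7.35 in fertilized eggs, so it was high in the shelled larvae and low before and after. The next 4 falls were between -7.66 and -7.17. Among probes found only at the umbonal stage, CUST_3794 had the highest lower bound. It was at 10.46, 10.55 and 10.38 in umbonal larvae and at 3.22, 3.16 and 2.87 in juveniles, at least 105-fold lower, after 10.46, 9.62 and 9.27 at the 3 earlier stages. In the 127 falls of at least 20-fold the highest juvenile array was replicate 2 for 52, replicate 3 for 47 and replicate 1 for 28.

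Some of the large falls carry a pathway term, and those named here were chosen after their values were seen. CUST_32875, of inositol phosphate metabolism, was at 14.92, 14.94 and 15.30 in umbonal larvae and at 7.69, 8.05 and 8.03 in juveniles, a log2 change of -7.13 (standard error 0.25, adjusted p = 1.8e-10). CUST_31116, of the p53 signaling pathway, went from 12.28, 12.16 and 12.38 to 6.1, 5.93 and 6.05, a log2 change of -6.24 (standard error 0.54, adjusted p = 7.5e-07), and its mean had been no higher than 5.6 at any earlier stage. It was thus high at the umbonal stage alone.

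Another 3 of these falls carry the term complement and coagulation cascades, pathways of proteases and their targets in body fluids that are known mostly from vertebrates. They too were chosen because they fell, and say nothing of other probes with that term. CUST_22212, which also carries ECM-receptor interaction, was at 9.01, 8.98 and 8.83 in umbonal larvae and at 2.80, 2.81 and 2.79 in juveniles, below background and at least 36.3-fold lower. CUST_12133 went from 13.09, 12.65 and 13.14 to 9.32, 9.21 and 9.25, a log2 change of -3.70 (standard error 0.22, adjusted p = 1.9e-08), and CUST_15060 from 14.72, 14.15 and 14.58 to 10.55, 10.89 and 10.85, a log2 change of -3.72 (standard error 0.79, adjusted p = 0.0016). In each of the 3 the umbonal mean was the highest of the 5 stages, but CUST_15060 was already at 10.61 at the D-shaped stage.

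Some falls belonged to transcripts abundant in eggs. CUST_26220, with the term progesterone-mediated oocyte maturation, had means of 15.67 in fertilized eggs, 13.2 at the trochophore stage and 7.05 at the D-shaped stage, stood at 10.31, 10.41 and 10.49 in umbonal larvae and at 5.11, 5.36 and 6.28 in juveniles (log2 change -4.82, standard error 0.24, adjusted p = 5e-09). CUST_10165, a spliceosome probe, went from 13.9 in eggs to 11.67, 11.44 and 11.55 in umbonal larvae and 8.64, 8.59 and 8.21 in juveniles (log2 change -3.07, standard error 0.15). Another fall, CUST_49129, of valine, leucine and isoleucine biosynthesis and aminoacyl-tRNA biosynthesis, was at 14.65, 14.62 and 14.63 in umbonal larvae and at 10.46, 10.79 and 10.68 in juveniles (log2 change -3.99, standard error 0.13, adjusted p = 1.3e-10). The stage means of CUST_10165 declined at every step from eggs to juveniles, whereas CUST_26220 was higher at the umbonal than at the D-shaped stage, and CUST_49129 was at 12.5 in eggs and 14.9 at the D-shaped stage.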

How the data were processed

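Arrays of 3 umbonal pools (14 days) and 3 juvenile pools (35 days) were compared. Per the file headers, the deposited intensity values were made with Agilent Feature Extraction 11.5.1.1, with background subtraction and detrending within an array. The log2 values of the authors' processed table, deposited for the 58583 unigene probes, equal the log2 signal minus 1 constant per array near its 75th percentile, with no quantile normalization seen, and served as an alternative.

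Control and outlier spots were left out and spots of a probe averaged. Signals were put on the log2 scale, quantile-normalized over all arrays, with signals under 1 set to 1. The model had a mean for each stage and used the whole set of 15 arrays (limma 3.58.1, R 4.3.3). Its standard errors and p thus rest on the spread within all 5 stages, not on that of the umbonal and juvenile arrays alone. A probe was tested when well above background on all 3 arrays of either stage, and called when its p, adjusted by Benjamini-Hochberg, was below 0.05 with at least a 2-fold change. All adjusted p are limma's, two-sided. For a lower bound, each array of the dimmer stage was given its lowest signal well above background, or the probe's signal where that was larger, and the mean of these was set against the brighter stage. Lists and groups are described by counts and medians, without set tests. Named were the 5 largest rises and falls measured on all 6 arrays, the 3 largest bounds each way, the 6 largest GenBank rises and falls, the probes the paper names, and the 2 or 3 largest changes of each list or group, with probes lacking any annotation, the GenBank ones included, mostly given by their range, as were those of groups and lists beyond the examples. The members and lists were chosen with earlier results of these data known. The authors' fold changes, p-values and q-values were not used. In simulated data with 100 probes changed by 1.5 and 100 by 3 on the log2 scale, 61% and 95% were called, with 9 false calls among 52269 probes. There all other probes were equal in both stages, and the noise was normal with 1 spread per probe for all stages. These rates need not hold for the real arrays. Python 3.11.15, pandas 2.3.3 and numpy 2.4.6 were used for tables, and matplotlib 3.10.9 for figures. The arrays give no counts, so their number limits the precision.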

Additional observations from a re-analysis of the deposited data

How the results depend on the processing

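The main setting called 15403 probes and normexp background correction (offset 50) 9666, of which 9521 were called by both. The correction was run on the median signal because the mean signal is not in the files used here. That setting also gave 4832 falls, 486 rises of at least 20-fold, 37 falls of at least 20-fold and 9 falls in the cilium and axoneme list. A filter on all 6 arrays left 415 rises of at least 20-fold and 57 rises of GenBank probes, since it drops probes dark at the umbonal stage. Falls of at least 20-fold numbered 83 after the 75th-percentile shift and 83 in the authors' values. The cause of the other differences was not tested.

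The split of rises and falls, 7055 and 8348, moved with the scaling to 8513 and 5936 (75th-percentile shift), 8419 and 5897 (authors' values) and 7469 and 7169 (spike-in scaling), so that rises then outnumbered falls. The filter on all 6 arrays, which changes the probes tested, gave 4713 and 7634.

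With each array left out in turn, the called probes numbered 14671 to 15323, rises 6728 to 6981, falls 7910 to 8372, rises of at least 20-fold 987 to 1019, falls of at least 20-fold 125 to 136, GenBank rises 89 to 91, GenBank falls 25 to 28 and falls of the cilium list 14 to 16. The replicate numbers of the labels do not pair the arrays (deviations of same-numbered arrays correlated at 0.16, -0.01 and -0.16), and with the replicate number as a block 15259 probes were called. Of 220 named probes tested, 181 kept their call under every alternative, and none that was called turned its direction. Pf-smad4, which was not called, went from -0.09 to 0.37 after the 75th-percentile shift. Signal near background limits the folds of probes dark in 1 stage.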
